A study of Mus musculus with 30 samples.

Results

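Chemical reprogramming turns fibroblasts into induced pluripotent stem cells (iPSCs) with small molecules in place of introduced genes. In the experiment described here, the molecule labelled WS was left out of the medium from day 8 to day 12, and the cells were collected on day 12 for bulk RNA-seq. The cells were mouse embryonic fibroblasts (MEFs) of the OG2 line, genotype 129XOG2, used at passages 1 to 3 and labelled reprogramming intermediates. The -WS group and the CT group it was set against have 2 libraries each. The labels leave CT unexplained. It was read as the arm that kept every molecule, since its title alone carries no minus sign. These 4 libraries belong to a removal experiment of 10 libraries, within a series of 30 libraries in 15 groups. The other 6 libraries come from the -CHIR, -PD and -VC groups, 2 each, which lost another molecule over the same days. All 5 groups share the genotype, the medium up to day 8 and the day of collection. WS and VC are likewise unexplained and are used as written, while CHIR99021 and PD0325901 are named in full there for the iPSC medium only. Nothing in the labels says that the 2 libraries of a group came from separate cultures, so a p-value here reflects the spread between libraries, and that spread may be technical.

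Canonical Wnt signalling keeps beta-catenin from being degraded, and beta-catenin then joins transcription factors of the TCF and LEF family at its target genes. Many of those targets encode inhibitors of the same pathway, so their transcripts are widely used as a readout of its activity. CHIR99021 is known as an inhibitor of the kinase GSK3, which marks beta-catenin for degradation, and PD0325901 as an inhibitor of MEK. Fibroblasts are the main source of the extracellular matrix, including collagens, elastic fibres and small leucine-rich proteoglycans, and they lose much of this programme on the way to pluripotency. In bulk samples, fewer cells of a type and less RNA per cell cannot be told apart.

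The 10 libraries were alike in size, with a relative depth of 35100000 to 39100000, read from the steps in which their low FPKM values fall (FPKM counts fragments per kilobase and corrects for library size). The -WS libraries correlated at r = 0.9941 across the genes tested, which are not independent replicates, and 31 genes differed by more than 2-fold between them, against r = 0.9856 and 141 genes for the CT libraries. CT replicate 2 stood apart: mitochondrial-encoded genes took 2.03% of its FPKM total, against 5.77% to 8.12% in the other 9 libraries. For this reason each result against CT is also given against each CT library alone. The cells carried transcripts of both ends of the process. Vim, the intermediate filament of mesenchymal cells, stood at 503 and 482 FPKM in -WS cells and at 518 and 491 FPKM in CT cells. Pou5f1, the core pluripotency factor, stood at 59.7 and 55.2 FPKM in -WS cells and at 55.4 and 52.1 FPKM in CT cells, whereas Nanog did not exceed 0.178 FPKM in any of the 10 libraries.

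After removal of WS, 7 of 18 tested Wnt targets and inhibitors rose, and the secreted matrix genes Ccn3, Aspn, Ogn, Eln and Col14a1 were among the genes that fell. Of 13290 genes tested with limma on log2(FPKM + 1), 121 (0.91%) were called, that is, they passed a Benjamini-Hochberg adjusted p of 0.05 and a 2-fold difference. Among these, 59 genes (0.444%) rose and 62 (0.467%) fell in -WS cells. At an adjusted p under 0.05 with no fold threshold, 1231 genes (9.26%) differed. The median log2 difference over all genes was 0.06, and rescaling every library to the same total moved it by -0.12 and changed the split to 84 higher and 143 lower. Without CT replicate 1, 301 genes were called, 228 higher and 73 lower. Set against each CT library alone, 90 of the 121 genes (0.677% of those tested) passed 2-fold the same way both times, 43 higher (0.324%) and 47 lower (0.354%). Against CT replicate 1 alone, with no test, 62 genes (0.467%) were at least 2-fold higher and 98 (0.737%) at least 2-fold lower in -WS cells. Against CT replicate 2 alone the numbers were 238 (1.79%) higher and 81 (0.609%) lower. In the fit against both CT libraries, 2176 genes (16.4%) were higher and 1207 (9.08%) lower at a limma p under 0.05 before adjustment.

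**Figure D1:**
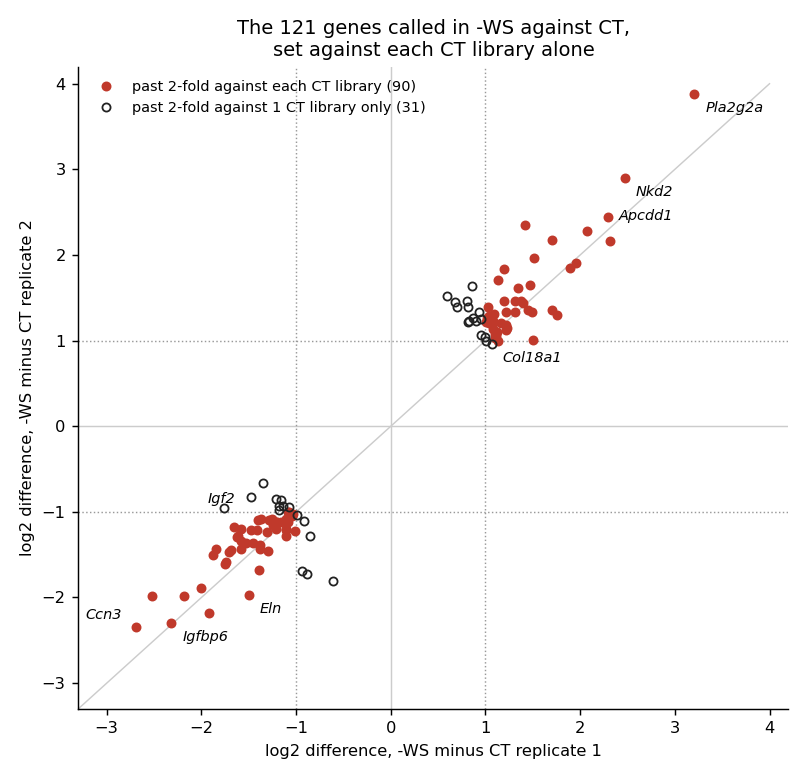
Each point is 1 of the 121 genes called in -WS against CT; the axes give the log2 difference of the -WS mean from CT replicate 1 (horizontal) and from CT replicate 2 (vertical), with dotted lines at 2-fold. The 90 filled points pass 2-fold against each CT library, all points keep 1 direction on both axes, and Col18a1 and Igf2 are among the open points that pass against 1 CT library only.

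Of 20 Wnt targets and inhibitors, 18 were tested, and 7 of them rose while none fell. The share of all genes that rose was 0.444%. At p under 0.05 before adjustment, 13 of the 18 were higher and 2 lower in -WS cells (16.4% and 9.08% of all genes), with a median log2 difference of 0.60 against 0.06 over all genes. The genes that rose were Nkd2, Apcdd1, Tcf7, Notum, Sp5, Nkd1 and Axin2. The upstream sequences of 3 of them are shown first because these genes moved together and because TCF and LEF factors bind a short word next to such genes. Each line holds the 250 bases before the RefSeq start of the gene (build GRCm38.p6), written 5′ to 3′ on the strand of the gene, with capitals for the words CTTTGAT and CTTTGTT searched on both strands. Sp5 lies at chr2:70474673-70474922 on the plus strand, Axin2 at chr11:108920099-108920348 on the plus strand and Nkd2 at chr13:73847632-73847881 on the minus strand.
Sp5: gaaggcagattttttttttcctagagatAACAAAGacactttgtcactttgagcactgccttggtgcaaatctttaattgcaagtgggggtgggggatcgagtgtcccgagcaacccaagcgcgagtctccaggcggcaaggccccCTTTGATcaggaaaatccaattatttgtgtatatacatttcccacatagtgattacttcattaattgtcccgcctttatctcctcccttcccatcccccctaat
Axin2: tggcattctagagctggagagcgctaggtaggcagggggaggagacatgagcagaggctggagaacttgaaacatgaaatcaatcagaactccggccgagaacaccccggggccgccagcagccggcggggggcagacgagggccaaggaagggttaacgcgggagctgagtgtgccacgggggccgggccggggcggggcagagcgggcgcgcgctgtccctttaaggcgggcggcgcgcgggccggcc
Nkd2: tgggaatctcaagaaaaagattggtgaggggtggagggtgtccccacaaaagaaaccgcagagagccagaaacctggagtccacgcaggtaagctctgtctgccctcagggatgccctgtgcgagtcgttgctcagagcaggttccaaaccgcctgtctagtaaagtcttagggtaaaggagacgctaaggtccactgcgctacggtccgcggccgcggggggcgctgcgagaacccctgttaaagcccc

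The Sp5 window held CTTTGTT on the minus strand, 222 bases before the start, and CTTTGAT on the plus strand, 104 bases before it. Neither word was found in the Axin2 and Nkd2 windows. Of the 7 genes, 5 had a promoter in the RefSeq table, and the Sp5 window was the only 1 of the 5 with a word. Over all 27025 genes of the table, 2174 windows (8.0%) held at least 1 of the words. A match of letters is a description of the window and not a mapped binding site.

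Nkd2, which binds Dishevelled and restrains Wnt signalling, had 15.2 and 15.1 FPKM in -WS cells, against 1.92 and 1.17 FPKM in CT cells. It had 0.232 and 0.285 FPKM in -CHIR, 17.1 and 18.5 FPKM in -PD, and 2.90 and 3.41 FPKM in -VC cells. Both -WS libraries thus lay far above both CT libraries and next to the -PD libraries. The log2 difference from CT was 2.69 ± 0.14 (SE; limma adjusted p = 1.23e-05). Apcdd1, a membrane-bound inhibitor that holds back Wnt at the cell surface, had 29.4 and 29.8 FPKM in -WS cells and 5.24 and 4.61 FPKM in CT cells. Its level was 2.58 and 2.48 FPKM in -CHIR, 28.7 and 27.0 FPKM in -PD, and 10.8 and 11.1 FPKM in -VC cells. The -WS and CT libraries did not overlap, and the log2 difference was 2.37 ± 0.08 (limma adjusted p = 2.62e-06).

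Tcf7, which encodes the beta-catenin partner TCF1, had 11.6 and 10.6 FPKM in -WS cells and 4.51 and 2.69 FPKM in CT cells. The lower CT value was that of replicate 2, and the log2 difference was 1.14 against CT replicate 1 and 1.71 against CT replicate 2, with 1.42 ± 0.16 in the fit (limma adjusted p = 0.000876). Notum, a secreted enzyme that strips the lipid from Wnt proteins, had 40.8 and 38.4 FPKM in -WS cells and 13.4 and 15.1 FPKM in CT cells (log2 difference 1.41 ± 0.09, limma adjusted p = 3.02e-05). Sp5, a zinc-finger factor switched on by beta-catenin, had 9.36 and 9.55 FPKM in -WS cells and 2.84 and 3.09 FPKM in CT cells (1.40 ± 0.12, limma adjusted p = 0.000168). In these genes, too, every -WS library lay above every CT library.

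The other Wnt genes that rose changed less. Nkd1, the paralog of Nkd2, had 24.8 and 22.7 FPKM in -WS cells and 11.03 and 9.72 FPKM in CT cells (log2 difference 1.12 ± 0.11, limma adjusted p = 0.000465). Axin2, the scaffold of the beta-catenin destruction complex and a general feedback target, had 32.4 and 33.0 FPKM in -WS cells and 15.9 and 15.3 FPKM in CT cells. Its log2 difference of 1.02 ± 0.07 (limma adjusted p = 5.31e-05) stood at the 2-fold limit, and it fell just under that limit when libraries were rescaled to 1 total (0.92) or by TMM factors (0.97). With a pseudocount of 5 in place of 1, 3 of the 7 genes stayed past 2-fold. Among the members that were not called, Cdx2 had a log2 difference of 0.81, Wif1 of 0.69, Lef1 of 0.47 and Lgr5 of 0.46. The secreted Wnt antagonist Sfrp2 lay lower without being called, at 74.8 and 74.4 FPKM in -WS cells and 130 and 121 FPKM in CT cells (-0.74). Cdx1 and T were below the level tested.

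**Figure D2:**
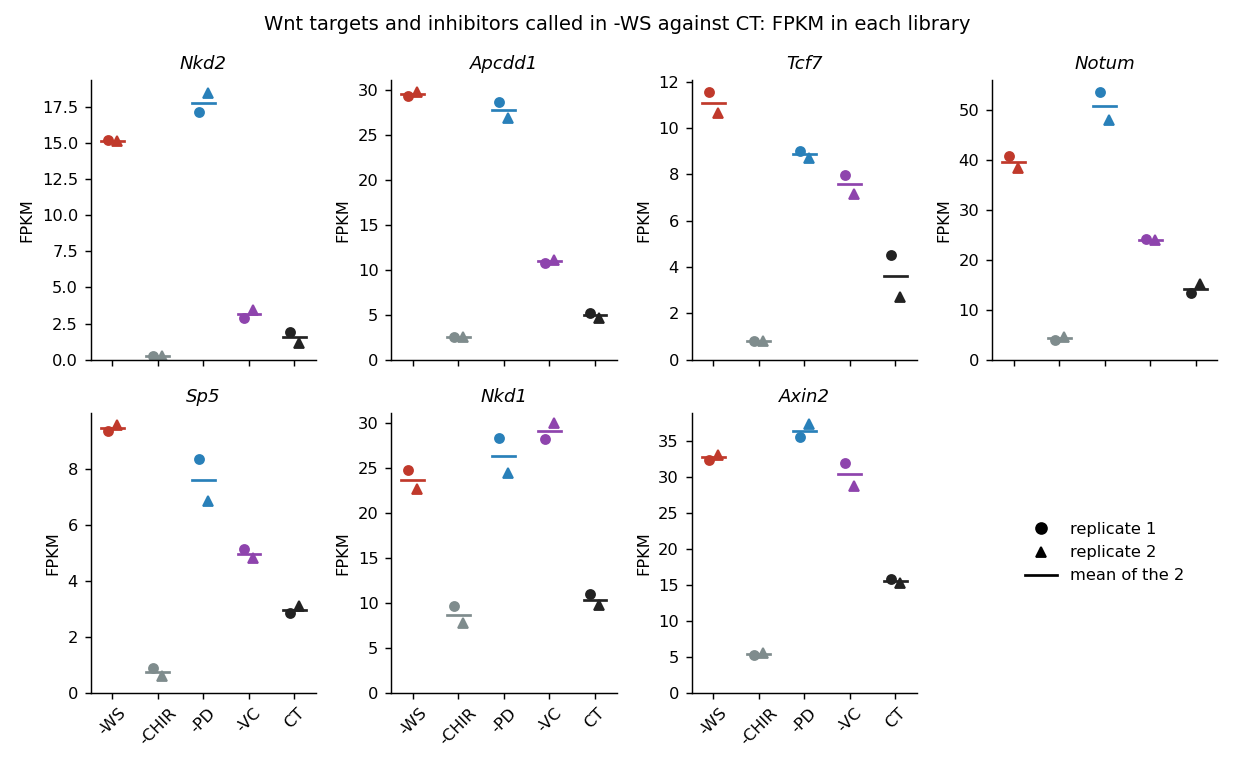
FPKM of the 7 Wnt targets and inhibitors called in -WS against CT, 1 panel per gene, with circles for replicate 1, triangles for replicate 2 and lines for the mean of the 2 libraries of each group. The -WS libraries lie above the CT and -CHIR libraries in every panel and close to the -PD libraries, for example 15.2 and 15.1 FPKM of Nkd2 in -WS cells beside 17.1 and 18.5 FPKM in -PD cells.

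The Wnt genes of -WS cells were also set directly against each of the other removals. These comparisons share the -WS libraries with each other and with the comparison against CT. Against -CHIR, where 231 genes (1.74%) were called higher in -WS cells, the 7 genes differed by 1.36 to 3.68 on the log2 scale, and all 7 were called higher. Against -PD, where 33 genes (0.248%) were called higher, they differed by -0.35 to 0.29, with 3 above and 4 below 0, and none of the 7 was called by limma. The full list of 18 had a median of -0.15 against -PD, with 2 higher and 7 lower at p under 0.05 before adjustment. Against -VC, where 236 genes (1.78%) were called higher, the range was -0.29 to 1.96, and Nkd2 and Apcdd1 were called higher in -WS cells. Sfrp1, a secreted Wnt antagonist, was the Wnt-list member called lower in -WS than in -PD cells, with 46.5 and 47.9 FPKM in -WS cells and 148 and 152 FPKM in -PD cells (log2 difference -1.64).

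Outside the Wnt list, the largest rise was that of Pla2g2a, a secreted phospholipase A2 (chromosome 4, 138831857 to 138835186, plus strand, build mm10). It had 31.8 and 31.3 FPKM in -WS cells and 2.53 and 1.21 FPKM in CT cells, against 0.264 and 0.266 FPKM in -CHIR, 23.6 and 18.6 FPKM in -PD, and 7.56 and 8.01 FPKM in -VC cells. The -WS libraries were the highest of the 10, and the log2 difference from CT was 3.54 ± 0.19 (limma adjusted p = 1.78e-05). Chodl, a membrane lectin, had 11.9 and 12.09 FPKM in -WS cells and 2.09 and 1.69 FPKM in CT cells (2.17 ± 0.12, limma adjusted p = 1.8e-05). In the other removals Chodl did not exceed 3.69 FPKM, and it was called higher in -WS cells against -CHIR (2.73), -PD (2.02) and -VC (1.60) as well. Akr1c18, a hydroxysteroid dehydrogenase that reduces progesterone, was likewise highest in -WS cells, at a lower level. It had 5.94 and 6.35 FPKM in -WS cells and 1.11 and 1.91 FPKM in CT cells (1.53 ± 0.19, limma adjusted p = 0.00163), and was called higher against each of the other removals (1.199 to 1.76).

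Tnc, the matricellular protein tenascin C, was the most abundant of the named rises, at 199.6 and 212 FPKM in -WS cells and 73.35 and 64.7 FPKM in CT cells (log2 difference 1.56 ± 0.08, limma adjusted p = 1.23e-05). Its levels were 39.8 and 37.6 FPKM in -CHIR, 131 and 141 FPKM in -PD, and 71.5 and 70.0 FPKM in -VC cells, so that both -WS libraries were again the highest of the 10. Cabp7, a calcium-binding protein of the Golgi, had 12.8 and 12.9 FPKM in -WS cells and 1.79 and 2.09 FPKM in CT cells (2.24 ± 0.10). Its -PD level was the same as in -WS cells, at 12.7 and 12.8 FPKM. Cadps, a priming factor for dense-core vesicles, had 10.8 and 11.3 FPKM in -WS cells and 2.101 and 2.22 FPKM in CT cells (1.93 ± 0.12). The limma adjusted p was 6.27e-06 for Cabp7 and 2.86e-05 for Cadps, and the groups did not overlap for either.

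Tnfsf9, a ligand of the TNF family that stimulates T cells, had 14.8 and 13.7 FPKM in -WS cells and 4.87 and 4.55 FPKM in CT cells (1.42 ± 0.10, limma adjusted p = 5.94e-05). Hsd11b1, which regenerates active glucocorticoid, had 9.45 and 9.89 FPKM in -WS cells and 3.67 and 1.98 FPKM in CT cells (1.52 ± 0.17, limma adjusted p = 0.000986). Hsd11b1 was higher still in -PD cells, at 16.7 and 17.4 FPKM. The agouti gene, a secreted regulator of pigmentation with the 1-letter symbol a, had 6.57 and 8.78 FPKM in -WS cells and 1.64 and 2.36 FPKM in CT cells (1.53 ± 0.21, limma adjusted p = 0.00244). It met the other conditions for naming and is not counted among the 12 because 1-letter symbols were left out. The 12 largest named rises differed from -CHIR by 0.85 to 4.69 (11 called), from -PD by -0.76 to 2.02 (2 called) and from -VC by 0.50 to 2.47 (8 called). Over all genes, 231 (1.74%) were called higher against -CHIR, 33 (0.248%) against -PD and 236 (1.78%) against -VC. The 12 rises were picked by high values in the same -WS libraries, so their counts against single arms are not separate support.

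The largest named fall was that of Ccn3, a matricellular protein of the CCN family (chromosome 15, 54745702 to 54754039, plus strand). It had 7.97 and 8.52 FPKM in -WS cells and 58.7 and 45.8 FPKM in CT cells. It stood at 159 and 162 FPKM in -CHIR, 6.80 and 6.03 FPKM in -PD, and 17.1 and 16.2 FPKM in -VC cells. The -WS libraries were thus well under CT and close to -PD, with a log2 difference from CT of -2.52 ± 0.11 (limma adjusted p = 6.27e-06). Igfbp6, a secreted binder of IGF2 (chromosome 15, 102144362 to 102149511, plus strand), had 21.4 and 22.5 FPKM in -WS cells and 113 and 112 FPKM in CT cells. Its levels were 206 and 204 FPKM in -CHIR, 51.4 and 40.2 FPKM in -PD, and 70.9 and 69.5 FPKM in -VC cells. The -WS libraries were the lowest of the 10, and the log2 difference from CT was -2.31 ± 0.10 (limma adjusted p = 6.27e-06).

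The small leucine-rich proteoglycans asporin and osteoglycin, which bind collagen, were also lowest in -WS cells. Aspn had 2.24 and 2.37 FPKM in -WS cells and 17.95 and 12.09 FPKM in CT cells (log2 difference -2.25 ± 0.14, limma adjusted p = 3.9e-05). Across the other removals it spanned 4.19 FPKM in -VC to 60.4 FPKM in -CHIR cells. Ogn had 33.2 and 34.7 FPKM in -WS cells and 128 and 98.1 FPKM in CT cells (-1.69 ± 0.11, limma adjusted p = 4.71e-05). In the other removals Ogn lay between 91.1 and 179 FPKM, and -WS cells were called lower than -CHIR (-2.35), -PD (-1.86) and -VC (-1.41). Decorin, the abundant member of the family, was not called, with Dcn at 978 and 1013 FPKM in -WS cells and 1273 and 925 FPKM in CT cells.

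Within the list of 27 collagens and elastic fibre genes, all of them tested, 4 fell and 1 rose, beside 0.467% and 0.444% of all genes. The median log2 difference was -0.33 (0.06 over all genes), and at p under 0.05 before adjustment, 14 members were lower and 6 higher (9.08% and 16.4% of all genes). The elastic fibre genes Eln, Loxl1 and Fbn1 were among the falls. Eln, the elastin precursor, had 14.6 and 13.7 FPKM in -WS cells and 41.8 and 58.2 FPKM in CT cells (-1.73 ± 0.14, limma adjusted p = 0.000155). Loxl1, which cross-links elastin, had 25.2 and 26.3 FPKM in -WS cells and 89.0 and 80.5 FPKM in CT cells (-1.68 ± 0.07, limma adjusted p = 5.86e-06). Fbn1, the microfibril protein fibrillin, had 49.8 and 52.9 FPKM in -WS cells and 112 and 119 FPKM in CT cells (-1.15 ± 0.07, limma adjusted p = 3.02e-05). No library of -WS reached a CT value for any of the 3.

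Col14a1, a fibril-associated collagen, was the fourth fall, with 29.3 and 29.5 FPKM in -WS cells and 100 and 90.4 FPKM in CT cells (-1.66 ± 0.08, limma adjusted p = 7.94e-06). Its -PD level of 18.98 and 20.3 FPKM and its -VC level of 24.2 and 26.8 FPKM were close to that of -WS cells, while -CHIR cells had 204 and 199 FPKM. The main fibrillar chains were not called: Col1a1 had 6213 and 6252 FPKM in -WS cells and 7106 and 10180 FPKM in CT cells (-0.45), the higher value being that of CT replicate 2. Col18a1, a basement membrane collagen, went the other way, with 331 and 326 FPKM in -WS cells and 157 and 168 FPKM in CT cells (1.01 ± 0.07, limma adjusted p = 5.01e-05). It passed 2-fold narrowly: the difference was 0.96 without CT replicate 1 and 0.88 with the libraries rescaled to 1 total.

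**Figure D3:**
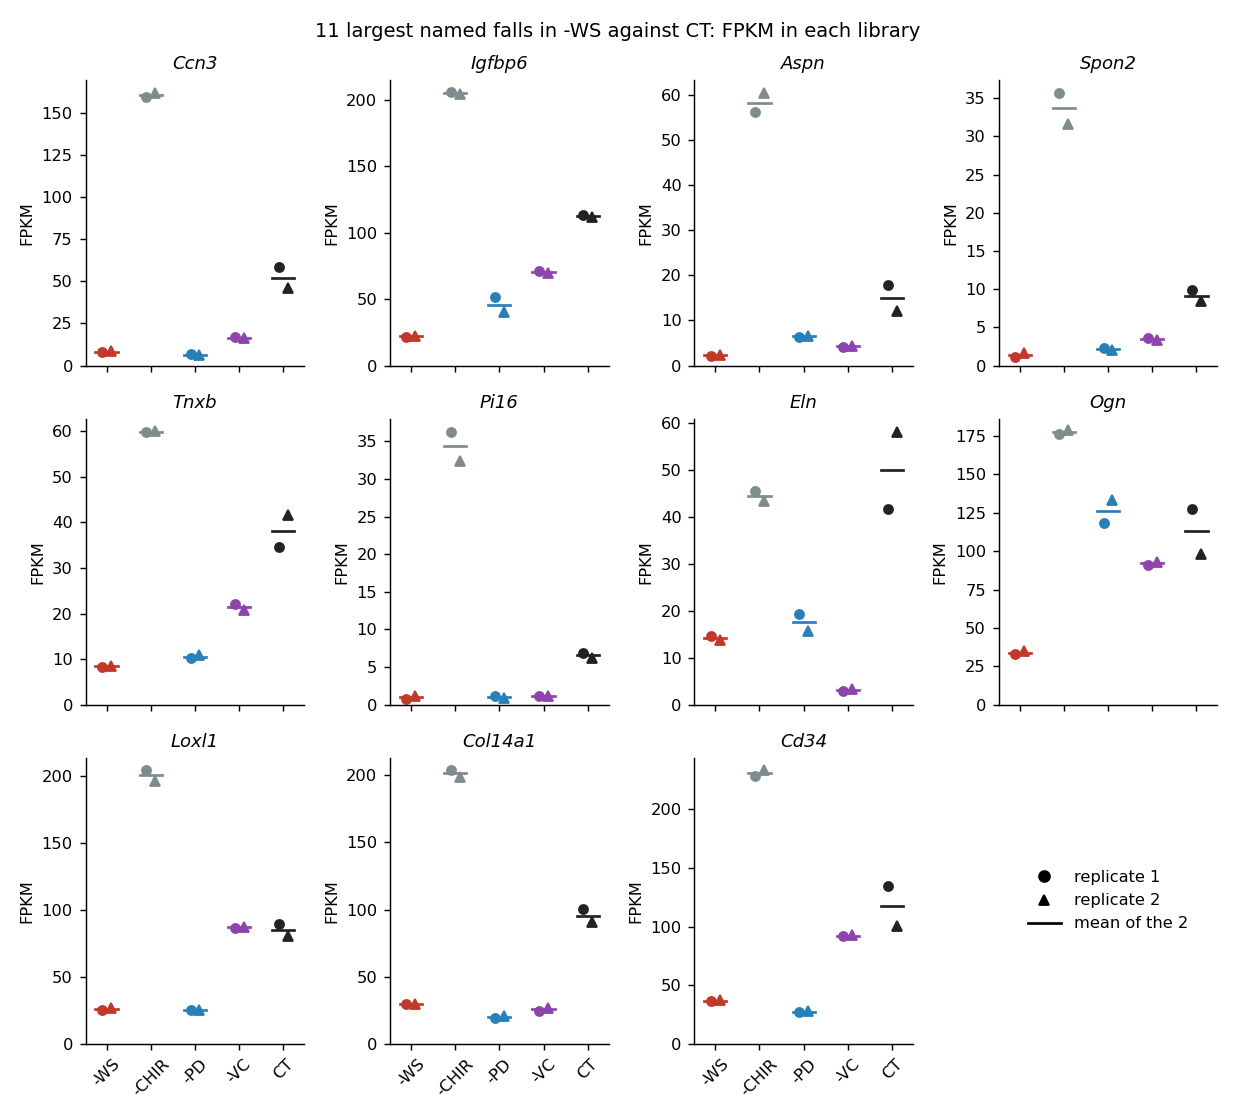
FPKM of the 11 largest named falls in -WS against CT, 1 panel per gene, with circles for replicate 1, triangles for replicate 2 and lines for the mean of the 2 libraries of each group. The -WS libraries lie under the CT libraries in every panel and the -CHIR libraries lie at the top in most, for example 7.97 and 8.52 FPKM of Ccn3 in -WS cells beside 159 and 162 FPKM in -CHIR cells; in the Eln panel the -VC libraries are lowest.

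Among the other named falls, Spon2, a matrix protein of the spondin family, had 1.19 and 1.62 FPKM in -WS cells and 9.85 and 8.42 FPKM in CT cells (log2 difference -2.08 ± 0.12, limma adjusted p = 1.82e-05). Pi16, a marker of a widespread mouse fibroblast population, had 0.817 and 1.10 FPKM in -WS cells and 6.84 and 6.26 FPKM in CT cells (-1.95 ± 0.11, limma adjusted p = 2.1e-05). Both lay near or under 1 FPKM in -WS cells, a level at which the added 1 on the log scale shrinks the difference. Sema3c, a secreted guidance cue, had 44.9 and 45.1 FPKM in -WS cells and 149 and 126 FPKM in CT cells (-1.59 ± 0.09, limma adjusted p = 1.82e-05). Tnxb, tenascin X, had 8.34 and 8.50 FPKM in -WS cells and 34.6 and 41.6 FPKM in CT cells (-2.05 ± 0.09, limma adjusted p = 6.27e-06). Its near-identical neighbour Tnxa was called as well, so the share of each in these reads is uncertain.

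Cd34, a surface sialomucin of mesenchymal, endothelial and blood progenitors, had 36.3 and 37.2 FPKM in -WS cells and 134 and 101 FPKM in CT cells (-1.64 ± 0.11, limma adjusted p = 5.31e-05). Tek, the angiopoietin receptor of endothelial cells, had 1.25 and 1.51 FPKM in -WS cells and 6.62 and 5.44 FPKM in CT cells (-1.56 ± 0.10, limma adjusted p = 3.9e-05). Of 8 endothelial markers 3 were tested and 1, Tek, fell. Their summed level was 3.15 and 3.85 FPKM in -WS cells and 9.04 and 7.84 FPKM in CT cells, and Tek was the largest part of it in CT cells. Cldn5 was listed at 0 in all 10 libraries, and Pecam1, Tie1 and Emcn did not exceed 0.125, 0.0326 and 0.0118 FPKM. The part of endothelial cells in the Cd34 values was not tested. The 12 largest named falls together differed from -CHIR by -4.18 to -1.58 (12 called lower), and from -PD by -1.86 to 0.56 (3 called lower). From -VC they differed by -1.72 to 1.88, with 6 called lower and Eln called higher in -WS cells. Over all genes, 299 (2.25%) were called lower against -CHIR, 53 (0.399%) against -PD and 109 (0.82%) against -VC. The 12 falls were picked by low values in the same -WS libraries, so their counts against single arms are not separate support.

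Of 21 imprinted and IGF-axis growth genes tested, 2 fell (Igfbp6 and Igf2) and none rose, beside 0.467% and 0.444% of all genes, with a median of -0.44. At p under 0.05 before adjustment, 11 were lower and 1 higher (9.08% and 16.4% of all genes). Igfbp1, an IGF binding protein outside this list, was called higher (1.06 ± 0.13, limma adjusted p = 0.00158). It had 3.16 and 3.79 FPKM in -WS cells and 1.39 and 0.906 FPKM in CT cells, and differed by 0.90 from CT replicate 1 alone. Igfbp1 was higher still in -PD cells, at 11.5 and 11.3 FPKM. Igf2, the fetal growth factor, had 120 and 153 FPKM in -WS cells and 377 and 241 FPKM in CT cells (-1.15 ± 0.19, limma adjusted p = 0.0059). That call rested on CT replicate 1: the difference was -1.47 against it and -0.83 against CT replicate 2. It was also lost without -WS replicate 1 (adjusted p = 0.0615). H19, the imprinted RNA next to Igf2, had 480 and 471 FPKM in -WS cells and 907 and 765 FPKM in CT cells (-0.81, not called). Cdkn1c, an imprinted inhibitor of cyclin-dependent kinases counted in the cell cycle list, fell to 26.5 and 22.3 FPKM in -WS cells, against 65.6 and 80.0 FPKM in CT cells (-1.54 ± 0.12, limma adjusted p = 8.8e-05). It was also low in -PD cells (35.1 and 30.3 FPKM) and -VC cells (32.3 and 33.5 FPKM), and high in -CHIR cells (143 and 134 FPKM).

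In the same list of 21 kinase inhibitors, D cyclins and p53 targets, Ccnd1 (cyclin D1) rose to 17.2 and 19.2 FPKM in -WS cells, against 7.96 and 8.098 FPKM in CT cells (1.09 ± 0.10, limma adjusted p = 0.000238). In -PD cells Ccnd1 was higher still, at 31.1 and 32.9 FPKM. The other 19 were not called, and the median was 0.09. The inhibitors Cdkn1a and Cdkn2a, known brakes on reprogramming, stood at 449 and 439 FPKM and at 305 and 292 FPKM in -WS cells. In CT cells they stood at 440 and 397 FPKM and at 291 and 325 FPKM. None of 25 proliferation genes was called by limma (median 0.12). At p under 0.05 before adjustment, 9 of them were higher and 2 lower (16.4% and 9.08% of all genes).

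Among 19 contractile and TGF-beta response genes, 1 fell and none rose (0.467% and 0.444% of all genes, list median -0.15). At p under 0.05 before adjustment, 9 were lower and 4 higher (9.08% and 16.4% of all genes). Tagln, the smooth-muscle actin-binding protein transgelin, had 9.61 and 10.98 FPKM in -WS cells and 23.2 and 22.9 FPKM in CT cells (-1.09 ± 0.09, limma adjusted p = 0.000195). Acta2, smooth-muscle actin, had 11.8 and 11.5 FPKM in -WS cells and 25.6 and 22.2 FPKM in CT cells, and its log2 difference of -0.97 stayed just under 2-fold on the log2(FPKM + 1) scale. Des, the intermediate filament desmin, was the 1 of 4 tested muscle markers that fell, with 4.88 and 4.94 FPKM in -WS cells and 12.6 and 11.8 FPKM in CT cells (-1.16 ± 0.07, limma adjusted p = 3.02e-05). The summed level of 10 muscle markers was 10.3 and 9.66 FPKM in -WS cells and 16.4 and 15.6 FPKM in CT cells. Myod1, Myog and Ttn did not exceed 0.0268, 0.0622 and 0.0214 FPKM in any library, and the part of muscle-like cells in the contractile values was not tested.

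Set against the mean of -CHIR, -PD and -VC, which uses no CT library, 118 genes (0.888%) were called, 70 higher (0.527%) and 48 lower (0.361%) in -WS cells. The median over all genes was -0.03, and 29.7% of genes had a p under 0.05 before adjustment. Taken singly, -WS differed from -CHIR in 530 genes (3.99%), from -PD in 86 (0.647%) and from -VC in 345 (2.6%). In the comparisons with CT, which share the CT libraries, -WS had 121 calls, -CHIR 129 (0.971%), -PD 169 (1.27%) and -VC 309 (2.33%). Correlations of library values, over the genes tested, ran from 0.9852 to 0.9870 between -WS and -PD, from 0.9732 to 0.9740 between -WS and -VC and from 0.9641 to 0.9649 between -WS and -CHIR. With CT replicate 1 the -WS libraries correlated at 0.9849 and 0.9851, and with CT replicate 2 at 0.9766 and 0.9764.

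Of 15 matrix proteinases and inhibitors tested, 4 were higher and 1 lower in -WS cells than in the mean of the other removals (0.527% and 0.361% of all genes, list median 0.47). Against CT, 1 member of the list, Mmp11, rose (median 0.18). Mmp10, stromelysin 2, had 15.6 and 15.9 FPKM in -WS cells, against 1.09 and 1.13 FPKM in -CHIR, 5.94 and 6.85 FPKM in -PD, 4.37 and 3.49 FPKM in -VC, and 8.15 and 7.67 FPKM in CT cells. The log2 difference from the other removals was 1.98 ± 0.09 (limma adjusted p = 2.68e-06), and that from CT 0.91, under 2-fold. Mmp13, an interstitial collagenase, had 11.7 and 11.6 FPKM in -WS cells, 1.01 to 5.29 FPKM in the other removals and 8.88 and 8.79 FPKM in CT cells. It differed from the other removals by 1.72 (limma adjusted p = 2.68e-06) and from CT by 0.36. For these proteinases CT cells lay nearer to -WS cells than the other removals did.

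Mmp11, stromelysin 3, showed another pattern. It had 212 and 213 FPKM in -WS cells, against 32.1 and 26.5 FPKM in -CHIR, 55.2 and 57.0 FPKM in -PD, 196 and 208 FPKM in -VC, and 80.1 and 77.7 FPKM in CT cells. It rose against CT (1.42 ± 0.09, limma adjusted p = 3.13e-05) and was called higher against -CHIR and -PD but not against -VC (0.07). Mmp3 was the fourth proteinase above the other removals, with 183 and 186 FPKM in -WS cells and 161 and 152 FPKM in CT cells. Timp3, a matrix-bound inhibitor, was the member called lower, at 35.4 and 35.3 FPKM in -WS cells, 64.4 to 99.3 FPKM in the other removals and 51.5 and 43.8 FPKM in CT cells. Mmp8, a proteinase outside this list, rose against CT as well (1.48 ± 0.12, limma adjusted p = 0.000108). It had 4.46 and 4.42 FPKM in -WS cells and 1.15 and 0.776 FPKM in CT cells.

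Of 17 tested chemokines and acute-phase genes of the NF-kappaB target list, 6 were higher in -WS cells than in the mean of the other removals and none lower (0.527% and 0.361% of all genes; median 0.57). Against the arms singly, 3 were called higher and 1 lower than in -CHIR cells (1.74% and 2.25% of all genes, list median 0.62). Against -PD, 1 was called higher (0.248% of all genes, list median 0.0060), with 6 higher and 4 lower at p under 0.05 before adjustment. Against -VC, 9 were called higher (1.78% of all genes, list median 1.14). Against CT none of the list rose and 1, C3, fell (median 0.28). At p under 0.05 before adjustment, 9 were higher and 2 lower (16.4% and 9.08% of all genes). The chemokine Cxcl14, outside this list, was called higher against CT (1.08 ± 0.16, limma adjusted p = 0.00333). It had 15.9 and 18.2 FPKM in -WS cells, 7.35 and 7.67 FPKM in CT cells, and 34.0 and 37.5 FPKM in -PD cells. Ccl8, a monocyte-attracting chemokine, had 703 and 696 FPKM in -WS cells, 132 to 304 FPKM in the other removals and 358 and 346 FPKM in CT cells. Its log2 difference was 1.84 ± 0.06 from the other removals (limma adjusted p = 2.26e-06) and 0.99 from CT, just under 2-fold. Saa3, an acute-phase apolipoprotein, had 1366 and 1283 FPKM in -WS cells, 241 to 766 FPKM in the other removals and 999 and 1087 FPKM in CT cells. The differences were 1.65 ± 0.10 (limma adjusted p = 1.69e-05) and 0.34. Ccl11, Cxcl5, Cxcl12 and Ccl2 were the other members called higher than in the mean of the other removals (1.00 to 1.49), and Cxcl5 turned direction against -PD alone (-0.74). C3, the complement component, had 6.88 and 6.77 FPKM in -WS cells and 22.9 and 17.9 FPKM in CT cells (-1.44 ± 0.10, limma adjusted p = 5.94e-05).

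Macrophage markers stood at low levels. Their summed level was 12.16 and 11.4 FPKM in -WS cells, 5.70 to 10.3 FPKM in the other removals and 9.95 and 8.52 FPKM in CT cells. Of 12 markers 3 were tested (Cd68, Cd14 and Lyz2) and none was called, while Ptprc, Adgre1 and Itgam did not exceed 0.0309, 0.091 and 0.0571 FPKM. Their part in the chemokine values was not tested. None of 21 NF-kappaB components was called by limma in either comparison, with medians of 0.05 against CT and 0.09 against the other removals. At p under 0.05 before adjustment, 4 components were higher and 1 lower against CT (16.4% and 9.08% of all genes). From the other removals, 11 of the 21 differed at that p, in both directions (29.7% of all genes).

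Interferon response and antigen processing genes leaned higher without calls against CT: of 25 tested, none was called by limma, 16 were higher and none lower at p under 0.05 before adjustment, and the median was 0.39 against 0.06 over all genes. The share of all genes higher at that p was 16.4%. Ifitm1, an interferon-induced gene outside this list, was called higher against CT (1.25 ± 0.22, limma adjusted p = 0.00773), but by 0.85 against CT replicate 1 alone. Against the other removals, Ifit1 (1.14) and Isg15 (1.02) were called higher (0.527% of all genes), and the median was 0.49. At p under 0.05 before adjustment, 21 of the 25 differed from the other removals, all of them higher. Over all genes, 29.7% had such a p in that comparison, in either direction. Ifit1, an interferon-induced RNA-binding protein, had 21.2 and 23.7 FPKM in -WS cells, 6.64 to 15.7 FPKM in the other removals and 13.4 and 12.8 FPKM in CT cells. Isg15, the ubiquitin-like modifier, had 38.3 and 33.7 FPKM in -WS cells, 12.5 to 23.2 FPKM in the other removals and 21.7 and 21.3 FPKM in CT cells.

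Called lower against CT as well were all 8 genes named as lowest in -WS cells against the other removals. Aspn differed by -2.01, Igfbp6 by -1.94, Ogn by -1.87, Spon2 by -1.73, Tek by -1.69, Sema3c by -1.58, Tagln by -1.50 and Igf2 by -1.49, each called by limma. Of these 8, 7 were called lower against -CHIR alone, 4 against -PD alone and 6 against -VC alone (2.25%, 0.399% and 0.82% of all genes). The 8 falls, like the 8 rises below, were picked by their difference from the mean of these same arms. Their counts against single arms are therefore not separate support. Tagln, Acta2, Actg2 and Ccn2 of the 19 tested genes of the contractile list were called lower than in the other removals (0.361% of all genes, list median -0.20). Acta2 stood at 24.2 to 43.4 FPKM in the other removals, above both -WS libraries. Among the 27 tested genes of the collagen list, Fbn1, Loxl1 and Mfap5 were lower and Col18a1 and Col15a1 higher, with a median of 0.04. Among the 21 of the growth list, Igfbp6, Igf2 and Plagl1 were lower and Mest higher (median -0.54). Over all genes, 0.361% were called lower and 0.527% higher in this comparison. Against -PD alone, Loxl1 (0.0403) and Mest (-0.73) turned direction. Of the 8 largest named rises, all were called higher against -CHIR alone, 5 against -PD alone and 7 against -VC alone (1.74%, 0.248% and 1.78% of all genes). Ch25h, which makes an immune oxysterol, was 1 of them, with 17.4 and 18.0 FPKM in -WS cells, 0.986 to 15.7 FPKM in the other removals and 8.15 and 6.14 FPKM in CT cells.

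**Figure D4:**
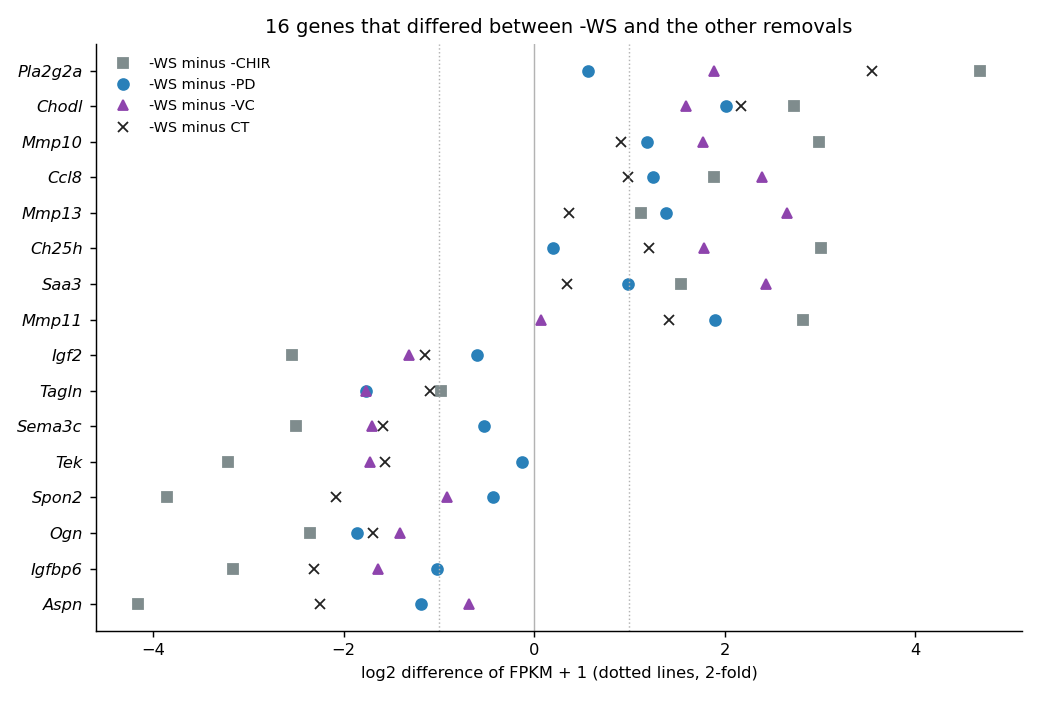
Log2 differences of -WS from -CHIR (squares), -PD (circles), -VC (triangles) and CT (crosses) for the 16 genes named in the comparison of -WS with the mean of the other 3 removals, sorted by that difference. Chodl, Ogn and Igfbp6 lie past 2-fold against all 4 groups, Mmp13 and Saa3 lie at 0.36 and 0.34 against CT, and Mmp11 lies at 0.07 against -VC.

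No gene of the pluripotency lists was called against CT. Of 15 naive and core factors 11 were tested and none was called by limma (median 0.09). At p under 0.05 before adjustment, 3 were higher and 1 lower (16.4% and 9.08% of all genes). Esrrb, a nuclear receptor of the naive state and a known Wnt-responsive gene in mouse embryonic stem cells, came nearest. It had 6.47 and 6.46 FPKM in -WS cells and 2.78 and 2.72 FPKM in CT cells, a log2 difference of 0.99 ± 0.18 (limma adjusted p = 0.00912). It passed the adjusted p and missed only the 2-fold limit. That limit applies to log2(FPKM + 1), where the added 1 shrinks the difference at such levels, and the FPKM values themselves differ by more than 2-fold. Klf2 lay lower, at 8.15 and 8.24 FPKM in -WS cells and 13.7 and 15.2 FPKM in CT cells (-0.75). Of 9 naive-state effectors none was called against CT (median -0.17, none higher and 2 lower at p under 0.05 before adjustment). Dppa3, a maternal factor, was called higher than in the other removals (0.527% of all genes), at 2.57 and 1.69 FPKM in -WS cells and 0 to 0.893 FPKM in the others. The tested effectors, Dppa3 included, differed from CT by -0.36 to 0.43 only. The Dppa3 call was lost with a pseudocount of 5 and against -CHIR alone. Of 4 primed-state genes none was called (median 0.16, with 2 higher at p under 0.05 before adjustment). The 9 extra-embryonic endoderm genes gave no call (median -0.22, with 1 higher and 3 lower).

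The remaining cell identity lists gave no call against CT. Their counts at p under 0.05 before adjustment stand beside 16.4% of all genes higher and 9.08% lower. None of 17 fibroblast genes was called by limma (median -0.06, with 6 higher and 4 lower at p under 0.05 before adjustment). Postn, periostin, had 161 and 166 FPKM in -WS cells and 306 and 263 FPKM in CT cells (-0.79), and Twist1, a mesenchymal transcription factor, had 236 and 232 FPKM in -WS cells and 144 and 159 FPKM in CT cells (0.62). None of 22 epithelial genes was called (median 0.21, with 11 higher and 3 lower), and Epcam had 31.1 and 28.5 FPKM in -WS cells and 25.04 and 23.9 FPKM in CT cells. Some keratins outside this list were called at low levels. Krt6b (2.78 and 1.88 FPKM in -WS cells, log2 difference 1.32) was higher and Krt20 (0.735 and 0.711 FPKM, -1.41) lower. Krt16 was higher at the 2-fold limit (1.46 and 1.45 FPKM, 1.00, and 0.995 against CT replicate 2). Of 3 tested neural markers none was called against CT (median -0.61, with none higher and 3 lower), and Tubb3, a neuronal tubulin, was called lower than in the mean of the other removals but lay higher than in -PD cells alone (0.36). The summed level of 10 neural markers was 14.2 and 12.5 FPKM in -WS cells, 12.4 to 37.5 FPKM in the other removals and 25.7 and 21.9 FPKM in CT cells. Dcx and Sox1 did not exceed 0.0120 and 0.0222 FPKM. Of 6 Schwann and neural crest markers none was called (median -0.09, with 1 higher and 3 lower), and Ednrb, an endothelin receptor, was called higher than in the other removals. Of 3 tested adipocyte, cartilage and bone markers none was called (median 0.32, with 2 higher and 1 lower). None of 16 genes of the 2-cell stage and germline reached the level tested, and their sum was at most 1.58 FPKM in a library.

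Metabolic and signalling lists also gave few calls. Over all genes, 16.4% were higher and 9.08% lower at p under 0.05 before adjustment. ERK feedback and AP-1 genes (15 tested) had none (median 0.20, with 7 higher and 1 lower at p under 0.05 before adjustment). Xenobiotic and antioxidant genes (19 tested) had 1 rise, Ahrr, the repressor of the aryl hydrocarbon receptor, with 4.85 and 4.43 FPKM in -WS cells and 1.43 and 1.59 FPKM in CT cells (1.17 ± 0.12, limma adjusted p = 0.000612), and a median of 0.14. There was no call by limma among 25 amino-acid stress genes (median 0.16, 8 higher and 1 lower at p under 0.05 before adjustment), 27 cholesterol genes (0.18, 9 and 1) or 19 lipid genes (0.03, 3 and 3). The 27 glycolysis and hypoxia genes gave none either (0.05, 11 and 3), nor did 30 ribosome biogenesis genes (0.14, 11 and none) or 20 chromatin genes (0.01, 2 and 2). Against the other removals, Trib3 was called lower in the stress list. It stood at 1.41 and 1.09 FPKM in -WS cells, at 27.5 and 30.2 FPKM in -VC cells and at 0.777 to 1.78 FPKM in -CHIR and -PD cells.

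**Figure D5:**
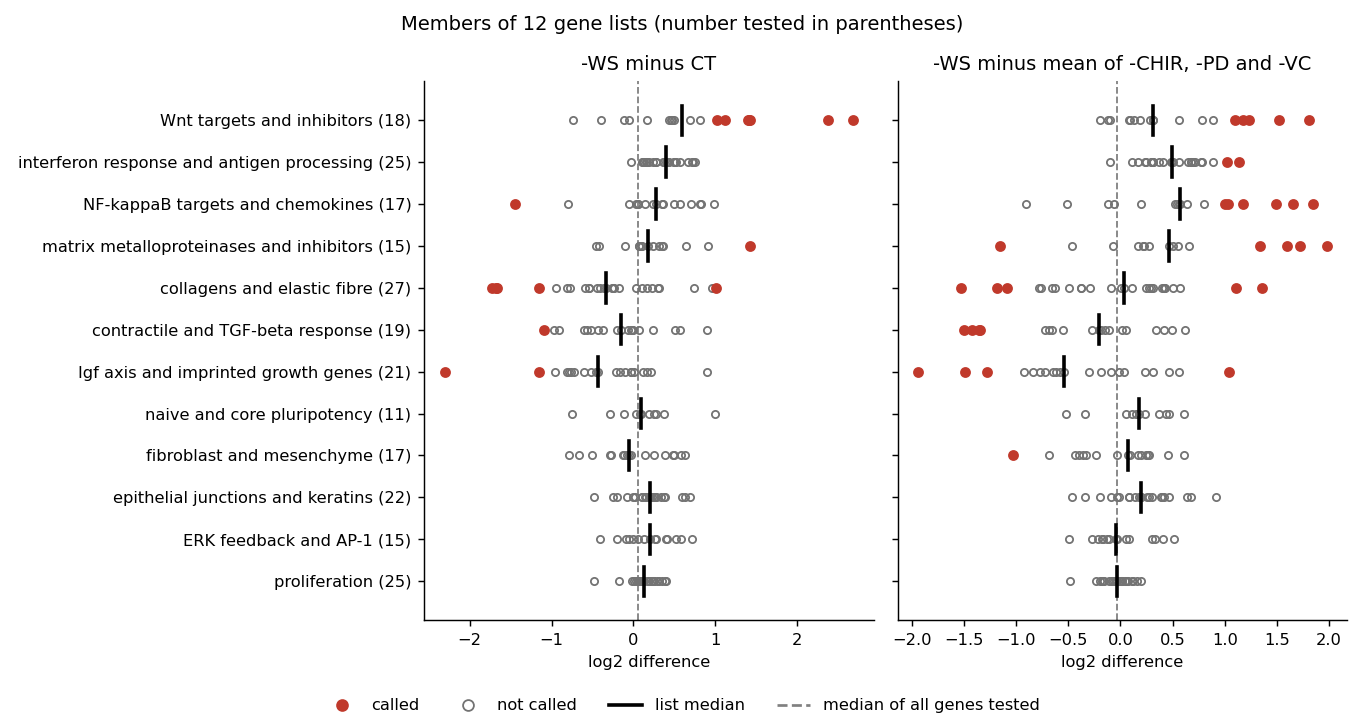
Log2 differences of the tested members of 12 gene lists in -WS against CT (left) and in -WS against the mean of -CHIR, -PD and -VC (right), with filled points for called genes, bars for list medians and a dashed line for the median of all genes tested (0.06 and -0.03). The Wnt list has 7 filled points on the left and 5 on the right, all above 0, and the naive pluripotency list has none in either panel.

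Respiratory chain genes encoded by the mitochondrial genome differed by which CT library they were set against. None of the 13 was called by limma, though 12 were higher at p under 0.05 before adjustment, and their median log2 difference was 1.41. The median was 0.24 against CT replicate 1 and 2.59 against CT replicate 2. mt-Co1 had 6775 and 6981 FPKM in -WS cells, against 5970 FPKM in CT replicate 1 and 2046 FPKM in CT replicate 2. The nuclear-encoded subunits had a median of 0.14 over 33 genes with no call, and 13 were higher and none lower at p under 0.05 before adjustment. Against the other removals the mitochondrial-encoded genes had a median of 0.18 and no member at p under 0.05 before adjustment.

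The CF1 chemical arm of the series gives the levels of these genes over time in another mouse stock, from a separate table with no test across the tables. Such counts were not taken over all genes, so those given here do not set the named genes apart from other genes. Of the 12 largest named rises, 9 had both day 12 libraries under both day 8 libraries in that arm, and 11 had both iPSC libraries under both day 12 libraries. For Apcdd1 the day 0 mean was 3.13 FPKM, followed by 169 FPKM on day 4, 126 FPKM on day 8, 18.2 FPKM on day 12 and 0.407 FPKM in iPSCs. For Tnfsf9 they were 5.08, 75.5, 248, 8.97 and 1.27 FPKM in the same order. Of the 12 largest named falls, 9 had both day 12 libraries above both day 8 libraries, and all 12 had both iPSC libraries under both day 12 libraries. Ogn averaged 21.6 FPKM on day 0, 47.6 FPKM on day 4, 9.43 FPKM on day 8, 379 FPKM on day 12 and 2.31 FPKM in iPSCs. Col14a1 averaged 3.66, 4.74, 1.80, 49.4 and 0.0846 FPKM at these points. The tables may have been normalized separately, so these levels are not set against those of the OG2 cells.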

How the data were processed

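Total RNA was sequenced by Novogene with reads of 150 bp, per the labels' protocols. The submitters' processing notes name HISAT2 2.2.1, StringTie 2.0, fastp 0.20.1 and the build mm10; the annotation and any use of strand are not given in the sources used here. The authors deposited FPKM values per gene, 55401 identifiers in each table, and 99.5% of these were matched to a symbol in GENCODE. FPKM holds no counts. The low values fall on steps that give a relative depth, but what 1 step counts is unknown, so no count model was run.

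Genes with FPKM of at least 1 in 2 or more of the 10 removal libraries were tested on log2(FPKM + 1), computed from the deposited values, with limma 3.58.1 in R 4.3.3 (lmFit, contrasts.fit, eBayes with trend). All 5 groups entered 1 fit and so shared 1 estimate of the spread. A fold change on this scale understates the change of low genes. A call needed an adjusted p under 0.05 (Benjamini-Hochberg, over all genes of a comparison) and at least 2-fold. Named genes were the 12 largest rises and 12 largest falls against CT, and the 8 of each against the other removals, among called genes with no overlap between groups and a mean of at least 5 FPKM in the higher group. For CT, 2-fold against each CT library was also required. Predicted gene models, clone names and 1-letter symbols were left out. Named as well were members of 33 gene lists. A gene that this rule named is not reported here by name. The members and lists were chosen with earlier results of these data known. Promoters came from RefSeq. The script was tested on simulated data, and Python 3.11.15, pandas 2.3.3 and matplotlib 3.10.9 made the tables and figures. Alternatives covered the pseudocount (0.1, 5), the filter, 3 rescalings, the fit, the replicate number as a block and each library left out.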

Additional observations from a re-analysis of the deposited data

How the results depend on the processing

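The count of 121 genes called in -WS against CT was 264 with a pseudocount of 0.1 and 41 with 5. It was 227 after rescaling to 1 common total and 229 after rescaling without mitochondrial-encoded genes, and leaving out 1 library at a time gave 114 to 301. For the 118 genes called against the other removals these numbers were 309, 44, 212 and 221, with 123 for each -WS library left out, and -CHIR alone gave 530 and -VC alone 345. The 90 genes past 2-fold against each CT library became 204, 34, 155 and 154. The 7 Wnt genes called became 3 with a pseudocount of 5 and 6 to 7 with 1 library left out. Other filters, TMM factors, a fit without trend and fits over fewer groups kept these counts within 1.5 times. The replicate number does not pair the libraries (correlations of deviations -0.058 to 0.055), and a fit with it as a replicate block called 120 and 117 genes. Of 628 values of named genes against CT under these alternatives, 596 kept their call, 32 lost it and none changed sign. Of 703 against the other removals, 625 kept it, 71 lost it and 7 changed sign, all with -PD alone: Nkd2 (-0.22), Cxcl5 (-0.74), Notum (-0.35), Mest (-0.73), Loxl1 (0.0403), Trib3 (0.0806) and Tubb3 (0.36). The cause of these changes was not tested. With 2 libraries a group and no counts, precision rests on the shared spread.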

Other observations

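Some further genes that differed between -WS and CT cells belong to no list above and were chosen after their values were seen. Retinoid genes were among them. Crabp1, a cytoplasmic retinoic acid binder, rose to 2315 and 2308 FPKM in -WS cells, against 984 and 1045 FPKM in CT cells (log2 difference 1.19 ± 0.11, limma adjusted p = 0.00023). Cyp26b1, which degrades retinoic acid, had 114 and 120 FPKM in -WS cells and 54.6 and 46.7 FPKM in CT cells (1.197 ± 0.08). Aldh1a2, which makes retinoic acid, had 7.70 and 7.33 FPKM in -WS cells and 3.80 and 2.64 FPKM in CT cells (1.03 ± 0.13), but the difference was 0.83 against CT replicate 1 alone, under 2-fold. Dhrs3, which reduces retinal to retinol, fell to 27.7 and 24.8 FPKM in -WS cells, against 56.3 and 53.5 FPKM in CT cells (-1.04 ± 0.08).

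Ntf3, a neurotrophin, had 31.7 and 35.9 FPKM in -WS cells and 14.2 and 11.6 FPKM in CT cells (1.33 ± 0.11). Wnt10b was the Wnt ligand called in this comparison, and it fell, with 0.331 and 0.494 FPKM in -WS cells and 2.50 and 2.33 FPKM in CT cells (-1.28 ± 0.11). Ptn, the heparin-binding growth factor pleiotrophin, had 30.6 and 31.0 FPKM in -WS cells and 82.0 and 82.1 FPKM in CT cells (-1.38 ± 0.05). Bmp3, a secreted factor that opposes other BMPs, had 13.5 and 13.5 FPKM in -WS cells and 5.85 and 5.20 FPKM in CT cells (1.16 ± 0.08). The -WS and CT libraries did not overlap in any of these genes. Several had -PD levels close to -WS: Crabp1 (1988 and 1776 FPKM), Aldh1a2 (6.45 and 6.08), Ntf3 (29.9 and 29.9) and Wnt10b (0.515 and 0.429). For Aldh1a2 the -CHIR level was as close (7.18 and 6.30 FPKM). Cyp26b1 lay between -WS and CT in -PD cells (75.3 and 78.6 FPKM). Dhrs3 (50.3 and 44.3), Ptn (60.4 and 59.6) and Bmp3 (7.79 and 7.64) were nearer to CT there.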
